A study of Monodelphis domestica and Mus musculus with 2 samples.

Results

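Receptors for serotonin (Htr), dopamine (Drd), noradrenaline and adrenaline (Adra, Adrb) and acetylcholine (muscarinic Chrm, nicotinic Chrna and Chrnb) were described in the primary visual cortex (V1) of the gray short-tailed opossum and the mouse. Members were all features whose symbol began with one of these stems directly followed by a digit and that had a transcript in more than 8 segmented cells of the section. The rule gave 40 members of 30613 features in opossum and 45 of 61317 in mouse. Only 13 opossum and 17 mouse members reached 100 transcript molecules (unique molecular identifiers, UMIs) in V1, and the 19 genes that did so in either species are described, with values in both where both had the gene.

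Just inside the threshold were opossum CHRNA9, with 10 UMIs in 9 cells of the section, and a mouse noncoding feature named Chrna1os, with 12 UMIs in 9 cells. Just outside were opossum CHRM4 (4 cells) and mouse Htr3b (5 cells), Adra2b (7 cells) and Chrm5 (3 cells). Both mouse features named Chrna1os are noncoding genes that the rule takes in by name and are no receptors. Chrna7, Chrnb4, Drd4, Htr1d, Htr5b and Htr6 were not analysed here in opossum.

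Most of these proteins are receptors that act through G proteins. As background, the families Htr2, Adra1 and Chrm1, Chrm3 and Chrm5 couple mainly to Gq and raise calcium, the families Htr1, Htr5, Adra2, Chrm2, Chrm4 and Drd2 to Drd4 couple to Gi and lower cyclic AMP, and Htr4, Htr6, Htr7, Drd1, Drd5 and the Adrb family couple to Gs and raise it. Htr3 and the nicotinic subunits instead form ion channels that open when the transmitter binds. The axons that release these transmitters reach cortex from small groups of cells in brainstem and basal forebrain, so in V1 these receptors read signals tied to arousal and attention.

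The study profiled a 10-µm section through a block of more than one coronal slice per species by Stereo-seq, which captures polyadenylated RNA on a patterned chip and assigns it to segmented cells. The opossum (Monodelphis domestica) was 1 male of about 6 months from a colony, and the mouse was 1 male wild-type C57BL/6J of about postnatal day 40. Neither animal carried a transgene or received a treatment. The V1 cells that passed the deposited filter numbered 4806 in 3 hand-drawn regions in opossum and 9127 in 4 regions in mouse, and no cell barcode was shared between the sections.

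The V1 cells held 6933475 UMIs in opossum (median 1326 per cell, 1048 to 1503 across regions) and 12522687 in mouse (median 1305, 1259 to 1343). Receptor transcripts made up 5709 of these UMIs in opossum, or 8.23 per 10000, and 8200 in mouse, or 6.55 per 10000. All levels below are UMIs of a gene per 10000 UMIs of the cells named, with exact Poisson 95% intervals, and ratios carry the exact (Clopper-Pearson) 95% interval of the UMI split. With 1 animal per species there was no test between animals. The V1 regions of a species came from more than one coronal slice of the same animal. Which region lay in which slice is not given in the sources used here, so regions are no replicates and are given one by one.

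These intervals cover counting error only and are too narrow, because UMIs of a gene lay together in cells. For the described members with at least 100 UMIs, the variance of UMIs per cell was 1.26 to 2.32 times the mean, beside a median of 1.63 in opossum and 1.53 in mouse over features with 100 to 2000 UMIs. Levels of different genes were not ranked, since no length correction was possible. A lower level in a zone or class can reflect fewer cells with the transcript or less of it per cell, and these cannot be told apart in summed counts.

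Cell subclasses are the deposited labels, given by nearest neighbours in a single-nucleus atlas of the same species and thus from the same transcripts, so differences between subclasses are descriptions. Markers showed that labelled cells also held RNA of other types. The summed level of the 4 GABAergic markers (Gad1, Gad2, Slc32a1, Dlx1) was 19.5 in opossum GABAergic subclasses against 4.55 in glutamatergic and 5.91 in non-neuronal ones, and 8.44 against 3.17 and 3.60 in mouse. Glutamatergic markers did not separate the classes (57.9, 42.4 and 53.9 in opossum glutamatergic, GABAergic and non-neuronal cells over the 4 of 5 found, and 33.5, 27.1 and 32.6 in mouse over 5 of 5). The microglial marker P2RY12 was at 0 in all 3 opossum classes, and Pvalb itself was not analysed here in opossum, so that label rests on the other genes. The part of this shared RNA in the class and subclass ratios below was not tested.

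Each region was cut at mid-depth into a superficial (upper) and a deep (lower) zone, and a member was called by depth where its level was at least 25% higher in one zone, with the same direction in every region. In opossum, 5 of 13 members were higher in the deep zone (CHRM3, CHRNA4, DRD1, HTR1B and HTR2C), where 11.4% of 8846 features with at least 100 UMIs were called. Another 3 of 13 were higher in the superficial zone (ADRA1B, ADRA1D and HTR2A), against 10.7% of features. In mouse, 5 of 17 members were higher in the deep zone (Adra1b, Chrna4, Chrna7, Drd1 and Htr1f), against 6.65% of 11402 features, and 3 of 17 in the superficial zone (Adra2c, Adrb1 and Chrm2), against 8.67%. Chrna4 and Drd1 were the genes called in the same direction in both species, and Adra1b was called in opposite directions.

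Members lay on one side of 1 in every region in 8 of 13 cases in opossum, where 40.8% of features did, and in 8 of 17 in mouse, where 28.8% did. The median deep-over-superficial ratio of the members was 0.932 in opossum and 1.17 in mouse, beside 1.02 and 1.00 over all features. Oligodendrocyte markers also rose with depth, from a summed level of 26.2 to 51.1 in opossum (4 of 5 found; region ranges 23.3 to 27.0 and 47.3 to 55.3) and from 18.0 to 33.9 in mouse (5 of 5; 12.9 to 22.2 and 30.4 to 35.6). Its part in the deep calls was not tested, and the levels of L6CT and oligodendrocyte-labelled cells of the deepest of 5 depth bins are given beside the members called deep.

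**Figure D1:**
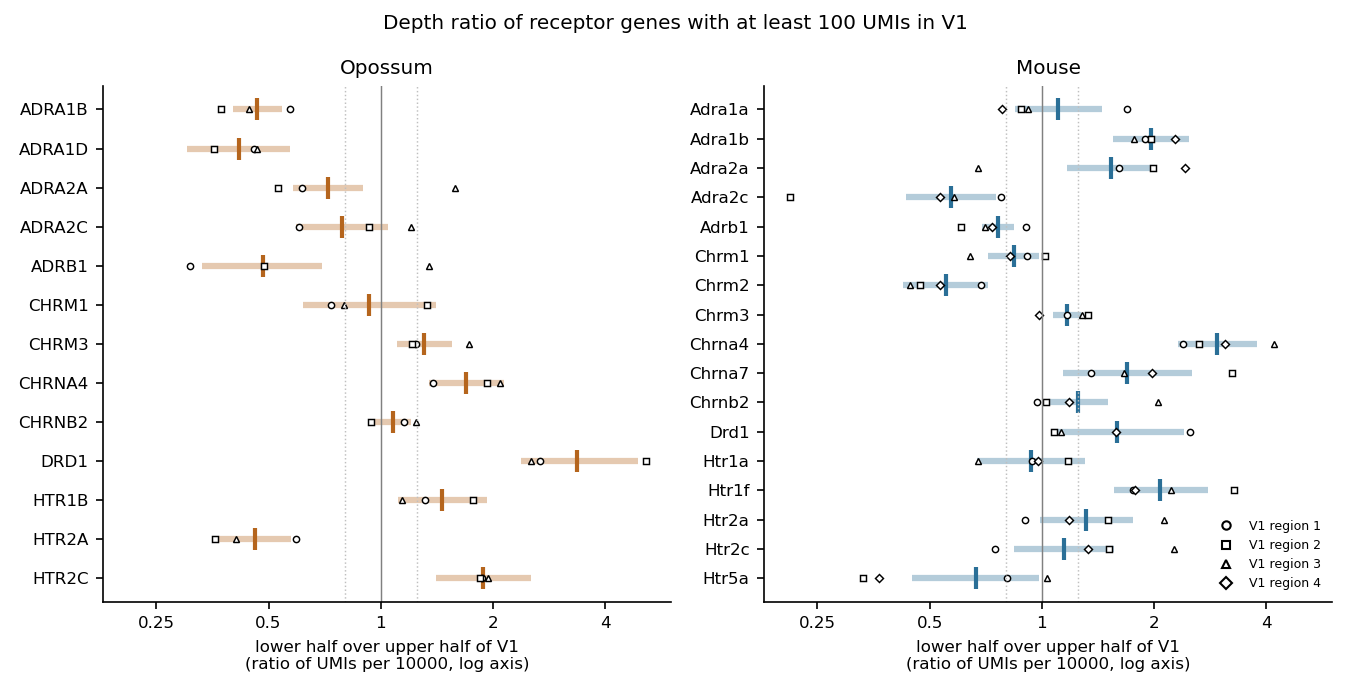
Deep-over-superficial ratio of the level (UMIs per 10000 UMIs, lower over upper zone of V1, log axis) of each member with at least 100 UMIs in opossum (left) and mouse (right); vertical ticks are pooled ratios, shaded bars exact 95% intervals of the UMI split, open symbols single V1 regions and dotted lines a difference of 25%. DRD1 (3.37) and Chrna4 (2.95) lie highest, and ADRA1D (0.417) and Chrm2 (0.552) lowest.

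Among the Gq-coupled serotonin receptors, HTR2A, which is the main cortical target of serotonergic psychedelics, was higher in the superficial zone in opossum. Its level held over the upper 3 of 5 depth bins and fell below them. Its level in V1 was 0.567, 0.474 and 0.502 in regions 1 to 3. It fell from 0.733 in the superficial zone to 0.337 in the deep zone, a ratio of 0.460 (0.368 to 0.574), with ratios of 0.592, 0.358 and 0.408 in the 3 regions. In 5 equal bins of depth it was flat over the upper 3 (0.760, 0.776 and 0.773), then dropped to 0.315 and to 0.0995 in the deepest bin, where the region range was 0.0471 to 0.139.

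By subclass, HTR2A was highest in IT_B, the opossum intratelencephalic subclass that lies at middle depth (median depth 48.5% of V1). The level was 1.70 (36 UMIs, 1.19 to 2.35) against 0.709 in the more superficial IT_A, a ratio of 2.40 (1.62 to 3.45), and 2.12, 3.50 and 1.23 by region. It was low in corticothalamic L6CT cells, at 0.160 (0.0917 to 0.260), and in IT_C, at 0.219. RORB, a marker of layer 4, had 7.50 in IT_B and 0.482 in IT_A, which come from the same transcripts that gave the labels. Mouse Htr2a was also higher in the L4 label than in L2/3, at 0.1756 (44 UMIs) against 0.08673 (16 UMIs), a ratio of 2.025 (1.12 to 3.844), although region 2 was below 1 (3.466, 0.8471, 4.704 and 2.058 by region). By depth it was not called. Its level was 0.142 superficially and 0.186 deep, a ratio of 1.31 (0.986 to 1.75), below 1 in region 1 (0.899) and above it in the other 3 (1.503, 2.12 and 1.18; 1.575 and called deep without region 1), and its highest bin was the middle one at 0.246.

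HTR2C, the other Gq-coupled serotonin receptor, ran the opposite way to HTR2A in opossum. It rose from 0.223 superficially to 0.419 deep, a ratio of 1.88 (1.41 to 2.52), and the 3 regions lay close together at 1.87, 1.85 and 1.94. The peak was in bin 4 from the top, at 0.537 (region range 0.428 to 0.619), and the level in L5PT, the pyramidal-tract subclass of layer 5, was 0.551 (13 UMIs). In the deepest bin L6CT cells held 0.2925, oligodendrocyte-labelled cells 0.07439 (2 UMIs) and all others 0.5789. In mouse the ratio was 1.15 (0.842 to 1.57), with region 1 at 0.749 and the others at 1.51, 2.26 and 1.33, so that without region 1 it was called deep (1.597). In opossum the ratio was 3.203 with cells thinned to 300 UMIs. Thinning kept 1395000 of the 6933475 opossum UMIs, so the counting error of that value is larger. HTR2B, a receptor known mainly from outside the brain, had 2 UMIs in opossum V1 and 10 in mouse V1.

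Of the alpha-1 adrenergic receptors, which also signal through Gq, Adra1b was called in opposite directions in the 2 species. Opossum ADRA1B was at 1.55 in the superficial zone and 0.722 in the deep zone, a ratio of 0.467 (0.401 to 0.543), and at 0.569, 0.373 and 0.444 by region. From the top bin to the bottom it read 2.06, 1.29, 0.910, 1.01 and 0.380. IT_A cells held 1.62 and L6CT cells 0.431, and the L6CT over IT_A ratio was under 1 in each region (0.350, 0.259 and 0.145).

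Mouse Adra1b (GRCm39, chr11:43665433-43792037, minus strand) was instead deeper. Its level was 0.181 superficially and 0.356 deep, a ratio of 1.96 (1.56 to 2.49), with 1.89, 1.96, 1.77 and 2.27 in the 4 regions. The upper 3 bins were alike (0.204, 0.186 and 0.181) and the last 2 higher (0.402 and 0.374). In the deepest bin the level was 0.371 in L6CT, 0.426 in oligodendrocyte-labelled and 0.354 in all other cells, so it was not set apart by label. None of the opossum regions overlapped the mouse regions in this ratio. Species, animal, age, RNA quality and gene models cannot be told apart here, and the difference was not tested. Nor are the zones of the 2 species matched by layer.

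ADRA1D was a superficial transcript in opossum, falling from 0.392 to 0.163, a ratio of 0.417 (0.302 to 0.570) with 0.457, 0.357 and 0.466 by region. The top bin stood highest, at 0.533 (region range 0.468 to 0.597). In mouse V1 it had 8 UMIs and no ratio of use. ADRA1A was the alpha-1 receptor with no depth difference that held across regions, at 0.918 in opossum (76 UMIs) and 1.11 in mouse (231 UMIs). It was set apart by cell class instead, as given with the class ratios.

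CHRM3, a Gq-coupled muscarinic receptor, had its lowest level in the middle of opossum V1. By depth bin it read 0.935, 0.684, 0.383, 0.906 and 1.26. Deep over superficial it was 1.31 (1.11 to 1.55), with 1.24, 1.22 and 1.72 by region. The call ended without region 3 (1.229), and it was 1.232 with each cell scaled to the same total. Subclasses showed the same dip, with 1.42 in L6CT (1.20 to 1.68), 0.760 in IT_A and 0.0943 in IT_B (2 UMIs, 0.0114 to 0.341). The L6CT over IT_A ratio was 1.87 and near that in each region (1.92, 1.75 and 1.98). In the deepest bin oligodendrocyte-labelled cells held 0.5951, below L6CT (1.572).

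Mouse Chrm3 had a similar dip, described here from its own values. It was at 2.27 in the top bin, then 1.22, 1.34, 1.86 and 1.85 below. Cells labelled L2/3 held 2.60 (2.37 to 2.85), L4 1.11 (0.983 to 1.248), L6IT 2.76 and L6CT 2.06. L4 over L2/3 was 0.426, below 1 in all 4 regions (0.352, 0.349, 0.573 and 0.668). Because both ends were high, the deep-over-superficial ratio was only 1.17, and region 4 was at 0.984. Mouse Chrm3 also had the most clustered UMIs of the described members, with a variance of 2.32 times the mean.

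CHRM1, the muscarinic receptor regarded as the main excitatory one of forebrain, did not differ by depth beyond the spread of regions in either species. Its ratio was 0.932 in opossum (0.734, 1.33 and 0.799 by region) and 0.840 in mouse (0.910, 1.02, 0.640 and 0.821). In opossum its bins were highest in the middle (0.202) and lowest at the bottom (0.0684). CHRM5 was a member only in opossum, with 10 UMIs in V1.

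**Figure D2:**
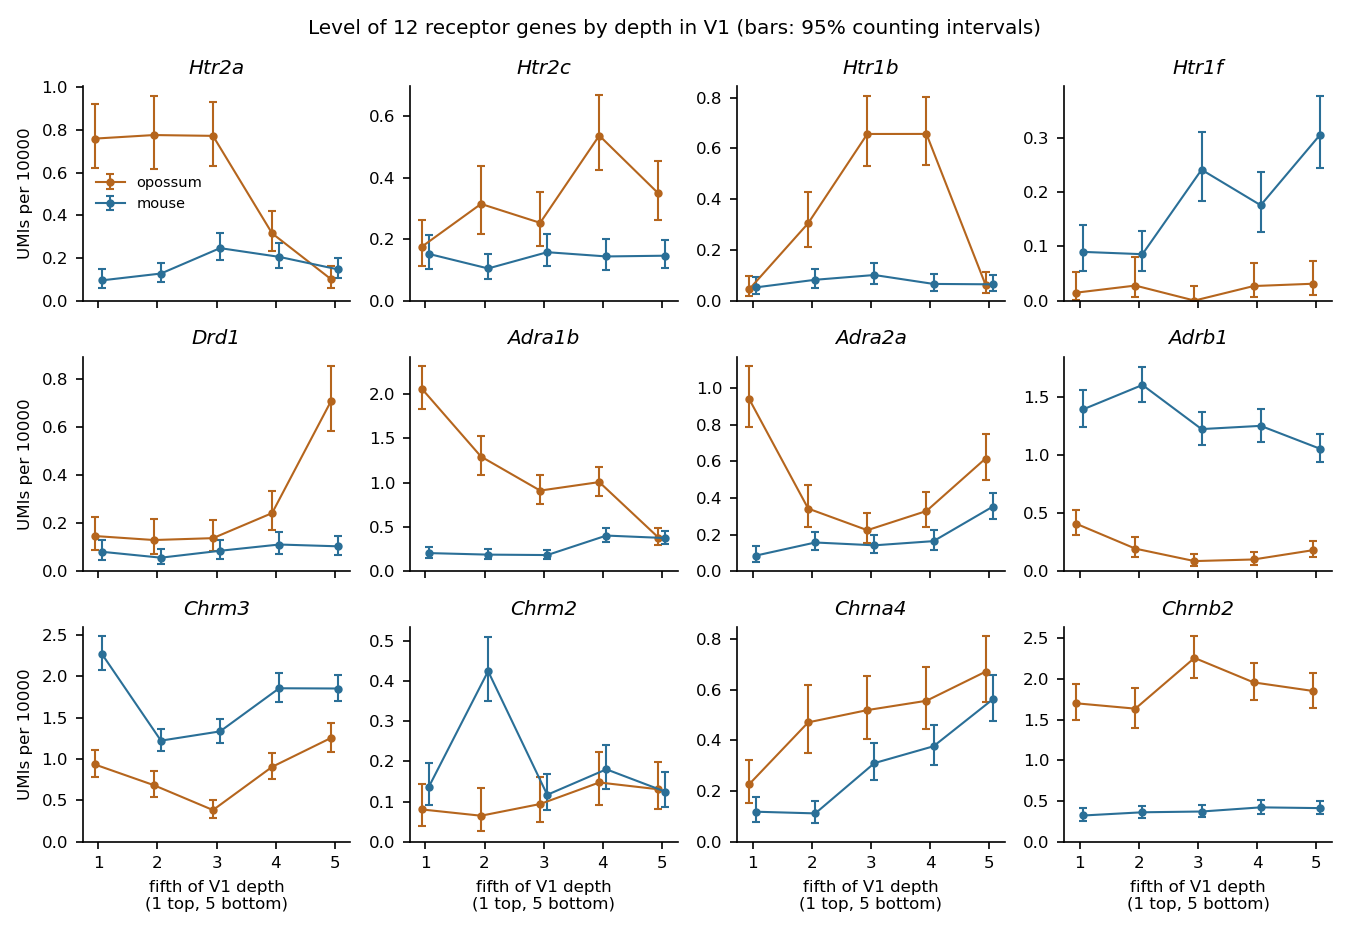
Level (UMIs per 10000 UMIs, linear axes that start at 0) of 12 members in 5 equal bins of V1 depth from the top (1) to the bottom (5), in opossum (orange) and mouse (blue), with points for pooled V1 cells and bars for exact Poisson 95% intervals. In opossum, HTR1B peaks in bins 3 and 4 (0.657 each), while DRD1 is high in the deepest bin alone (0.709).

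Of the Gi-coupled receptors, HTR1B, which sits on axon terminals and lowers release, had the sharpest band in opossum. Its bins read 0.0438, 0.305, 0.657, 0.657 and 0.0622 from top to bottom. Bin 3 ranged from 0.573 to 0.708 over regions and the deepest from 0 to 0.124, with no overlap. Because the band straddled mid-depth, the deep-over-superficial ratio was a modest 1.46 (1.11 to 1.93; 1.31, 1.77 and 1.14 by region). It was 1.001 with cells thinned to 300 UMIs each, a value from far fewer UMIs and thus with a larger counting error. HTR1B was low in L6CT (0.110, 11 UMIs) and higher in L5PT (0.636, 15 UMIs), and L5PT over L6CT was 5.77 (2.48 to 13.9), above 1 in each region (3.71, 6.70 and 6.39). In the deepest bin, the 420 L6CT cells held 0 HTR1B UMIs, an upper limit of 0.0450, and oligodendrocyte-labelled cells held 1. The 11 L6CT UMIs thus lay above that bin. L5PT cells lay at a median depth of 71.3% of V1 and L6CT cells at 89.2%. Depth and label were therefore not separated in the L5PT over L6CT ratio.

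Mouse Htr1b was at 0.0735 in V1 (92 UMIs), with a ratio of 1.01, and no bin above 0.101. Htr1f, the target of the migraine drug lasmiditan, was the Gi-coupled serotonin receptor that stood out by depth in mouse (GRCm39, chr16:64742111-64926217, minus strand). It rose from 0.118 to 0.246, a ratio of 2.08 (1.56 to 2.79), with 1.76, 3.29, 2.21 and 1.77 by region. L6CT cells held 0.360 and L2/3 cells 0.0705, a ratio of 5.11 (2.81 to 10.1) that ran from 2.27 to 28.0 over regions, and L5PT held 0.481 (24 UMIs). Oligodendrocyte-labelled cells of the deepest bin held 0.314 beside 0.400 in L6CT and 0.177 in all others. Opossum HTR1F had 14 UMIs in V1, of which IT_A held 1.

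HTR1A, the inhibitory receptor of pyramidal and serotonergic cells, had 38 UMIs in opossum and 149 in mouse. In opossum its level in the deepest bin was 0.156, against at most 0.0361 in the other bins, and L6CT held 17 of the 38 UMIs (0.170). Its region ratios, 5.80, 0.777 and 8.39, did not share a direction. In mouse it was at 0.934 by depth. Htr5a, a Gi-coupled receptor found mainly in brain, had 112 UMIs in mouse V1 and a ratio of 0.667 (0.448 to 0.985), with region 3 at 1.03 and the others below 1 (0.807, 0.331 and 0.365). In opossum it had 4 UMIs, all in the superficial zone.

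The alpha-2 receptors ADRA2A and ADRA2C, which restrain noradrenaline release and also act on target cells, were both lowest at mid-depth in opossum. ADRA2A read 0.942 in the top bin, 0.224 in the middle (region range 0.152 to 0.283) and 0.616 in the deepest (0.541 to 0.801). ADRA2C read 0.424, 0.116 and 0.404 in those bins. Neither was called, because region 3 was above 1 for both (1.58 and 1.21) while regions 1 and 2 were below it (0.615 and 0.529 for ADRA2A, 0.604 and 0.932 for ADRA2C). Without region 3 both were called superficial, at 0.5731 and 0.7121.

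Mouse Adra2c (GRCm39, chr5:35435663-35439107, plus strand) was a superficial transcript. It fell from 0.228 to 0.130, a ratio of 0.572 (0.431 to 0.755), and was below 1 in each region (0.775, 0.212, 0.582 and 0.532). L2/3 cells held 0.309 (region range 0.275 to 0.371). Adra2a was highest in the deepest bin, at 0.352 beside 0.0853 in the top one, but region 3 went the other way (0.673, beside 1.61, 1.98 and 2.42), and without it Adra2a was called deep (1.879).

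Chrm2, the Gi-coupled muscarinic receptor, was highest in a band of the superficial zone in mouse (GRCm39, chr6:36364718-36505582, plus strand). Bin 2 was at 0.425 (region range 0.332 to 0.640), and the other bins were between 0.117 and 0.1804. L4 cells held 0.471 (118 UMIs, 0.390 to 0.564) and L2/3 cells 0.119 (22 UMIs), a ratio of 3.95 (2.49 to 6.54), with 6.50, 2.42, 3.11 and 3.74 by region. L4 thus held 118 of the 251 V1 UMIs, and the others lay outside that label. Pvalb-labelled cells held 0.331 (9 UMIs), a ratio to L4 of 0.703 (0.314 to 1.38), an interval that included 1. Rorb, the layer 4 marker, was at 2.73 in L4 and 0.629 in L2/3. Opossum CHRM2 had 74 UMIs, with no such band (bins between 0.0647 and 0.148). CHRM4 was a member only in mouse, where no V1 cell held it.

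Among the Gs-coupled receptors, DRD1, the main dopamine receptor of cortex, was the deepest transcript of the called members in opossum. The superficial zone had 0.128 and the deep zone 0.429, a ratio of 3.37 (2.37 to 4.89), with 2.68, 5.15 and 2.53 by region. The rise lay at the bottom, since the upper 3 bins were between 0.129 and 0.146, bin 4 at 0.242 and the deepest at 0.709. L6CT cells held 0.662 and IT_A cells 0.172, a ratio of 3.85 (2.56 to 5.85) that was 4.06, 3.74 and 3.71 by region. FOXP2, a marker of layer 6, was at 4.72 in L6CT and 0.383 in IT_A.

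DRD1 was also found in cells labelled oligodendrocyte (0.630, region range 0.0773 to 0.947), which lie deep as well (median depth 69.3%). In the deepest bin it was at 0.719 in L6CT, 1.04 in oligodendrocyte-labelled cells and 0.521 in all others, with intervals that overlapped (0.547 to 0.928, 0.692 to 1.505 and 0.343 to 0.758), so depth and label were not separated there. Mouse Drd1 (GRCm39, chr13:54204872-54209760, minus strand) rose from 0.0666 to 0.106, a ratio of 1.59 (1.06 to 2.41), with regions at 2.50, 1.08, 1.13 and 1.58. It rested on 109 UMIs, and leaving out any region took it under 100 UMIs and so ended the call. Without region 1 its ratio was 1.251. L6CT cells held 0.130, and in the deepest bin they held 0.1335, oligodendrocyte-labelled cells 0.02242 (1 UMI) and all others 0.09845.

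The beta-1 receptor Adrb1 had 1633 UMIs in mouse V1 (GRCm39, chr19:56710631-56721545, plus strand). It was broad over depth, from 1.61 in bin 2 to 1.06 in the deepest, and the ratio was 0.764 (0.692 to 0.843), with 0.908, 0.607, 0.706 and 0.734 by region. Without region 2 the ratio was 0.8041 and the call ended. It overlaps 3 annotated genes on the other strand, whose reads cannot be told apart where counting ignores strand. Mouse Adra1a, Adra1b, Adra1d, Adra2a, Chrm1, Chrm2, Chrm3, Htr1b, Htr2c and Htr5a also overlap genes on the other strand. In opossum, ADRB1 was highest in the top bin (0.409) and lowest in the middle one (0.0867), and the ratio of 0.482 was not called because region 3 was at 1.35 (0.308 and 0.485 in the others). Without that region it was called superficial, at 0.3851.

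Of the other Gs-coupled members, HTR7 had 85 UMIs in opossum and 96 in mouse, HTR4 91 and 67, ADRB3 24 and 29, and DRD5 15 and 18. Htr6 had 16 UMIs in mouse. None of these reached 100 UMIs in V1.

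Nicotinic receptors are pentamers, and those of cortex are mostly built from CHRNA4 and CHRNB2 or from CHRNA7 alone. CHRNA4 was deep in both species. In opossum it rose from 0.360 to 0.611, a ratio of 1.70 (1.35 to 2.14; 1.38, 1.93 and 2.09 by region), and its bins climbed from 0.226 to 0.672. In mouse (GRCm39, chr2:180660173-180685339, minus strand) it rose from 0.152 to 0.447, a ratio of 2.95 (2.32 to 3.77; 2.40, 2.64, 4.18 and 3.10 by region), and its bins from 0.118 to 0.562.

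CHRNA4 was higher in L6CT than in the superficial intratelencephalic cells. The ratio to IT_A in opossum was 2.10, with 1.54, 2.06 and 2.84 by region, and that to L2/3 in mouse was 3.60, with 2.29, 3.37, 5.81 and 5.65. The difference was not particular to L6CT. In opossum, L5PT held 0.806 (19 UMIs) and Pvalb-labelled cells 0.612 (34 UMIs), while IT_B held 0.330 and IT_C 0.243. In mouse, L6IT held 0.350 (23 UMIs), L5PT 0.321 (16 UMIs) and L4 0.224, beside 0.114 in L2/3. Oligodendrocyte-labelled cells held as much as L6CT cells or more, at 0.821 in opossum (0.620 to 1.07) and 0.555 in mouse (0.406 to 0.740). In the deepest bin of mouse V1, L6CT, oligodendrocyte-labelled and all other cells held 0.549, 0.672 and 0.532, with overlapping intervals. In that of opossum V1 they held 0.585 (0.4314 to 0.7757), 1.116 (0.7529 to 1.593) and 0.5789 (0.3906 to 0.8264), so that oligodendrocyte-labelled cells were highest. Whether this reflects transcripts of those cells or of their neighbours was not tested.

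CHRNB2, the partner subunit, was not called by depth in either species, in mouse because region 1 lay below 1. Its deep-over-superficial ratio was 1.08 in opossum (1.15, 0.941 and 1.245 by region) and 1.251 in mouse (0.971, 1.03, 2.05 and 1.18). Without region 1 mouse Chrnb2 was called deep, at 1.414. The mouse gene overlaps Adar on the other strand. Mouse Chrna7 (GRCm39, chr7:62731494-62862322, minus strand) was called deep on 116 UMIs, with a ratio of 1.69 (1.14 to 2.53; 1.36, 3.23, 1.66 and 1.97 by region). Leaving out region 1, 3 or 4 took it under 100 UMIs. L6CT held 0.195, L6IT 0.274 and L2/3 0.0434, and in the deepest bin oligodendrocyte-labelled cells held 0.0224 (1 UMI) against 0.222 in L6CT.

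Every other nicotinic subunit was sparse. CHRNA2 had 51 UMIs in opossum and 1 in mouse, CHRNB1 34 and 7, CHRNA1 27 and 6, CHRNA3 11 and 3, CHRNA10 9 and 2, CHRNA5 8 and 15, CHRNA6 7 and 17, CHRNB3 2 and 32, and CHRNA9 1 and 8. Mouse Chrnb4 had 2. The ionotropic serotonin receptor gene HTR3A, which in rodent cortex is known from interneurons, had 2 UMIs in opossum and 33 in mouse, and HTR3B, a member in opossum only, had 6.

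**Figure D3:**
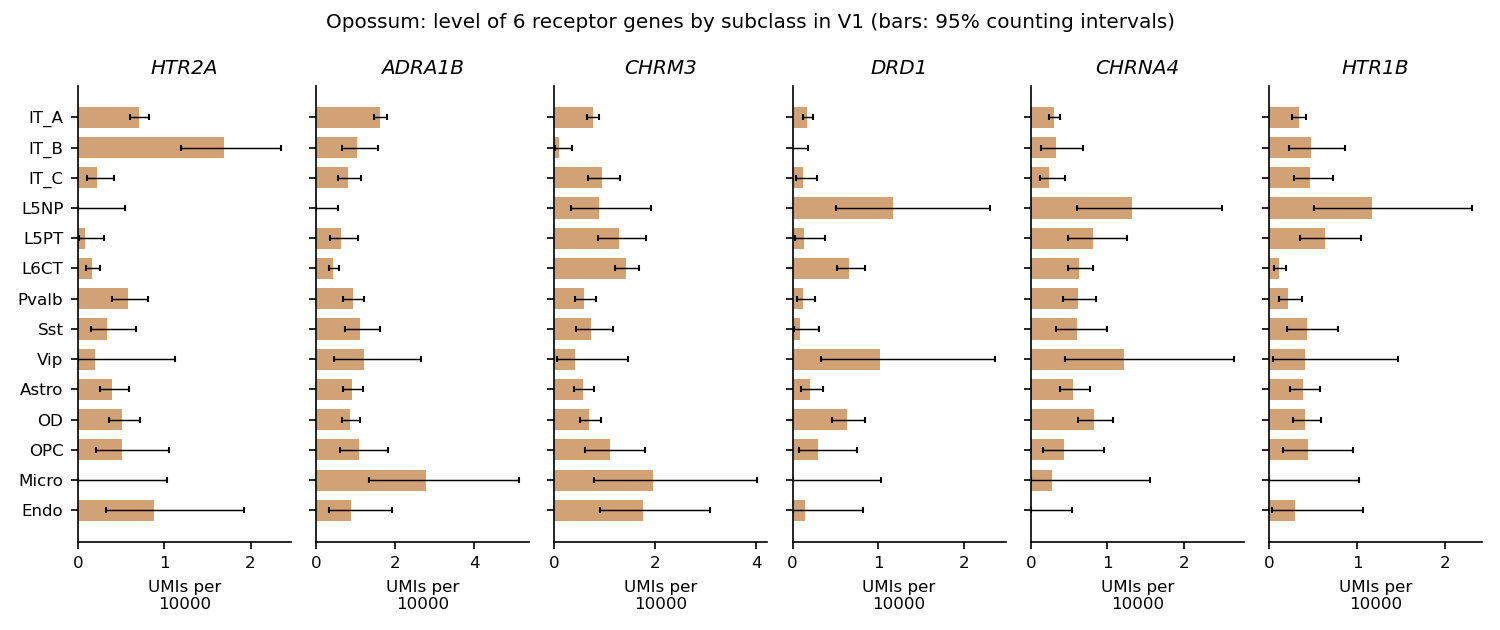
Level (UMIs per 10000 UMIs, axes that start at 0) of 6 members in each opossum V1 subclass with at least 25 cells, with exact Poisson 95% intervals (OD, oligodendrocytes; OPC, their precursors; Astro, Micro and Endo, astrocytes, microglia and endothelial cells). HTR2A is highest in IT_B (1.70), CHRM3 is low there (0.0943), and DRD1 is higher in L6CT (0.662) than in IT_A (0.172), while subclasses with few cells have wide intervals.

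**Figure D4:**
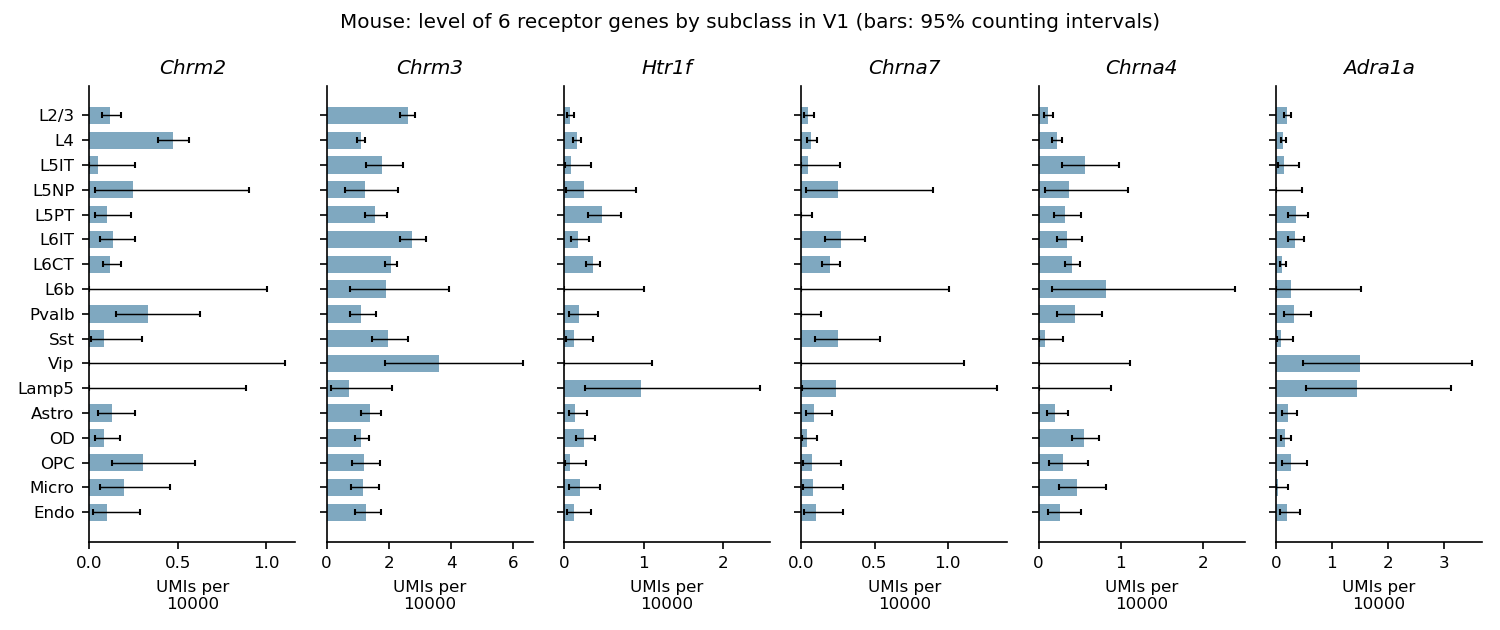
Level (UMIs per 10000 UMIs, axes that start at 0) of 6 members in each mouse V1 subclass with at least 25 cells, with exact Poisson 95% intervals and labels as for opossum. Chrm2 is highest in L4 (0.471), where Chrm3 is low (1.11), and the Adra1a bars of Vip (1.504, 5 UMIs) and Lamp5 (1.44, 6 UMIs) have wide intervals.

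By cell class, members with at least 400 UMIs in V1 were compared under the same fold rule. None of 3 opossum members (ADRA1B, CHRM3 and CHRNB2) was called higher in GABAergic than glutamatergic subclasses, where 9.47% of 4131 features were, and 1 of 3 (CHRM3) was called higher in glutamatergic ones, against 15.6%. CHRM3 had 0.607 in GABAergic and 0.935 in glutamatergic cells, a ratio of 0.649 (0.478 to 0.866; 0.638, 0.756 and 0.428 by region). Leaving out region 1 or 2 took CHRM3 under 400 UMIs. In mouse, 0 of 4 members (Adrb1, Chrm1, Chrm3 and Chrnb2) were called higher in GABAergic subclasses, against 4.23% of 6406 features, and 2 of 4 in glutamatergic ones (Adrb1 and Chrnb2), against 8.51%. Adrb1 was at 0.693 (0.717, 0.591, 0.752 and 0.693 by region) and Chrnb2 at 0.709 (0.958, 0.399, 0.994 and 0.296), the latter from 16 GABAergic UMIs. Leaving out region 1, 3 or 4 took Chrnb2 under 400 UMIs, and without region 4 its ratio was 0.8875. Without region 3 Chrm1 was called higher in glutamatergic cells, at 0.6106.

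Non-neuronal over neuronal cells gave no member higher in non-neuronal cells, 0 of 3 in opossum against 10.4% of features and 0 of 4 in mouse against 4.65%. Higher in neurons were 0 of 3 in opossum, against 18.6% (ADRA1B was called without region 3, at 0.7164), and 1 of 4 in mouse, against 7.54%. The latter was Chrm3, at 1.24 in non-neuronal cells and 0.658 times the neuronal level (0.634, 0.645, 0.850 and 0.585 by region).

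Some members under that minimum were set apart by class, given here as values. ADRA1A was at 0.263 in opossum GABAergic cells and 0.0469 in glutamatergic ones, a ratio of 5.62 (2.95 to 10.8) from 23 and 20 UMIs, with 1.97, 10.3 and 1.38 by region. Of the GABAergic UMIs, 22 were in Pvalb-labelled cells. Mouse Adra1a pointed the same way on average, at 2.11 (1.28 to 3.33), but region 2 was at 0.725 (2.13, 2.15 and 2.83 in the others), and its levels in Vip and Lamp5 cells rested on 5 and 6 UMIs. Mouse Htr1a had a ratio of 2.68 (1.46 to 4.63), with 3.81, 3.63, 2.46 and 0 by region, and 10 of its 16 GABAergic UMIs were in Sst cells. Opossum CHRM1 had 0 UMIs in GABAergic cells, beside 61 in glutamatergic and 32 in non-neuronal cells, and the ratio was at most 0.305.

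Compared with the rest of the section, several members were V1-rich in opossum. HTR2A was 2.31 times as high in V1 (2.06 to 2.59), ADRA1B 1.97, HTR1B 1.82, ADRA2A 1.77 and CHRM3 1.52. In mouse the highest of the described members were Adrb1 at 1.74 (1.65 to 1.83), Chrm2 at 1.38 and Chrm3 at 1.37. Others were lower in V1 than elsewhere: opossum CHRM2 at 0.278, HTR7 at 0.326, CHRNA4 at 0.627 and HTR2C at 0.640, and mouse Htr4 at 0.397, Htr2c at 0.400 and Htr1a at 0.526. The spread of this ratio over all features is not given here. CHRM2 had 74 of its 3054 opossum UMIs in V1, beside 6933475 of 84570416 UMIs over all features. In mouse it was higher in V1 than elsewhere. The tissue outside V1 differed between the sections, since the opossum block was trimmed around cortex.

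The sparse members DRD3, CHRNB3 and CHRNA6 of opossum, known for sites outside cortex, were lower in V1 than outside it, at 0.122, 0.110 and 0.197 times the level there. Dopamine receptor DRD5 was at 0.251 in opossum and 0.324 in mouse, and Htr5b at 0.435 in mouse. DRD2 had 21 UMIs in opossum V1 and 23 in mouse V1, and DRD3 had 3 and 4. The members left were HTR1E (22 UMIs) and ADRA2B (2) in opossum, and Htr5b (13), Drd4 (5), Htr1d (4) and the noncoding features named Chrna1os (13 and 1) in mouse.

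Set side by side, V1 levels of several genes lay far apart in the 2 animals. The mouse value was the larger for Adrb1 (0.192 in opossum and 1.30 in mouse), Htr1f (0.0202 and 0.184), Htr5a (0.00577 and 0.0894), Chrm1 (0.144 and 0.531) and Chrm3 (0.854 and 1.69). It was also the larger for Htr1a (0.0548 and 0.119). In each of these the 3 opossum regions lay below the 4 mouse regions (0.160 to 0.214 against 1.26 to 1.41 for Adrb1). The opossum value was the larger for Chrnb2 (1.89 and 0.380), Adra1b (1.09 and 0.272), Htr1b (0.343 and 0.0735), Htr2a (0.516 and 0.165), Drd1 (0.293 and 0.0870), Adra1d (0.267 and 0.00639), Adra2a (0.498 and 0.187) and Htr2c (0.330 and 0.140). For Chrnb2 the opossum regions were at 1.78, 1.87 and 2.18 and the mouse regions at 0.324, 0.301, 0.473 and 0.451.

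Nearer to each other were Chrna4 (0.498 and 0.305), Adra2c (0.299 and 0.177), Chrm2 (0.107 and 0.200) and Adra1a (0.110 and 0.184). For Chrna4 and Adra2c every opossum region still lay above every mouse region. These are levels relative to each library's own total. The opossum reference was the authors' own, with lengthened gene ends, which sets how many reads of each gene are counted, and the RNA of the opossum block was less intact, so species, animal, gene models and RNA quality cannot be told apart in these levels.

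**Figure D5:**
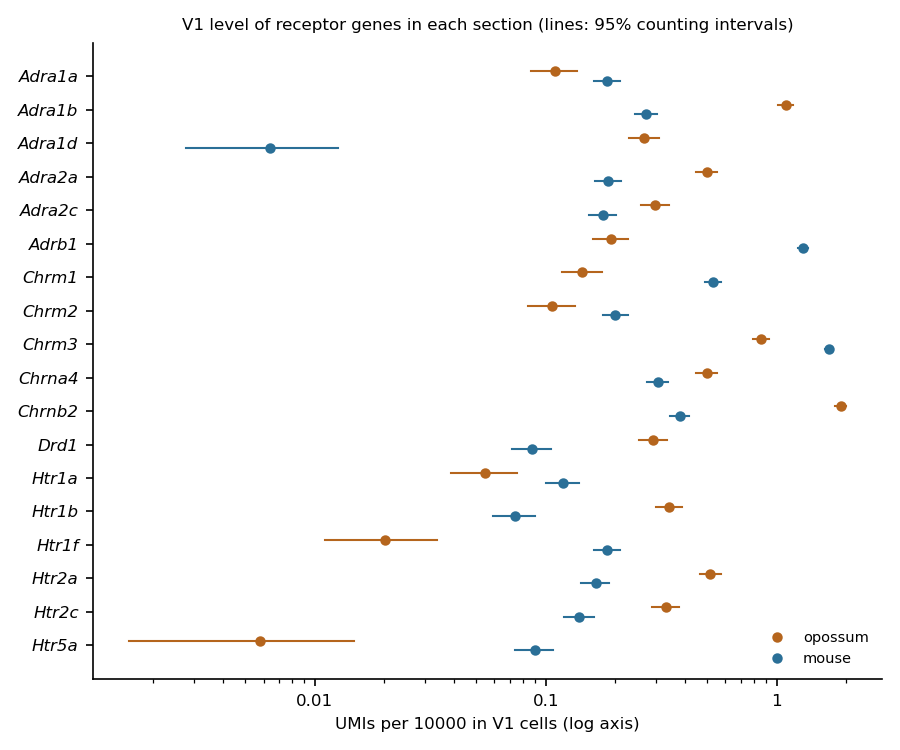
V1 level (UMIs per 10000 UMIs, log axis) of the 18 members described in both species, in opossum (orange) and mouse (blue), with exact Poisson 95% intervals. Chrnb2 (1.89 and 0.380) and Adrb1 (0.192 and 1.30) lie far apart in opposite directions.

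Genes that make, move and break down these transmitters act largely in the transmitter neurons, whose cell bodies lie outside cortex in the main. Of 18 listed genes, 15 were found in opossum and 18 in mouse, and 4 and 3 had at least 100 UMIs. In opossum 1 of the 4 was called deep, SLC18A3, the vesicular acetylcholine transporter (ratio 6.69, 100 UMIs), beside 11.4% of all features, although CHAT, the enzyme that makes acetylcholine, had 4 UMIs. In mouse 1 of the 3 was called deep, Ache, which breaks acetylcholine down (1.37), beside 6.65%. The list medians were 1.13 and 1.03.

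Of the G proteins and second messenger enzymes, 17 of 20 were tested in opossum and 20 of 20 in mouse. In opossum 2 of 17 were called deep, beside 11.4% of all features, and 5 superficial, beside 10.7%. In mouse 2 of 20 were called deep, beside 6.65%, and 3 superficial, beside 8.67%. Deep in opossum were GNAI1 (1.36) and ADCY1 (1.40), and superficial were ADCY2 (0.792), ADCY9 (0.782), PPP1R1B (0.621), RGS4 (0.728) and RGS7 (0.587). Deep in mouse were Adcy1 (1.40) and Adcy5 (1.32), and superficial were Adcy8 (0.662), Rgs4 (0.537) and Rgs7 (0.525). Rgs4 and Rgs7, which speed up the shutdown of G protein signals, were thus called superficial in both species and Adcy1, a calcium-activated adenylyl cyclase, deep in both. The list medians were 0.891 and 0.967.

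Genes for assembly and modulation of nicotinic receptors were called deep in 1 of 3 tested cases in opossum (RIC3, a chaperone, 1.51), beside 11.4% of all features, and 3 of 8 in mouse, beside 6.65%. The latter were Lynx1 (1.26), Lypd6 (1.80) and Lypd6b (2.32), whose proteins bind nicotinic receptors. None was called superficial in either species. The list medians were 1.03 and 1.04, beside the medians of all features given above.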

How the data were processed

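The deposited count matrices hold raw UMI counts per gene and segmented cell. Per the study's methods, the authors made them with the Stereo-seq Analysis Workflow after manual tissue alignment, with GRCm39 as the mouse genome and, for opossum, their own reference in which gene ends had been lengthened. GRCm39 and Cell Ranger are also named in the submitters' processing notes. Whether counting used strand is not given in the sources used here. V1 regions, the cell filter (at least 50 genes and 100 UMIs) and class and subclass labels were the authors'.

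Counts were summed over cells and given per 10000 UMIs, with exact Poisson and Clopper-Pearson 95% intervals (scipy 1.17.1, with pandas 2.3.3 and numpy 2.4.6 under Python 3.11.15, region rectangles from shapely 2.1.2 and figures from matplotlib 3.10.9). No test was run, as there was 1 animal per species. Depth came from the smallest rectangle that encloses the cells of a region, turned so that IT_A or L2/3 lay on top and L6CT at the bottom, so those subclasses lying at opposite ends is no result. A call by depth needed 100 UMIs in V1 and a call by class 400. Subclasses under 25 cells were left out of the subclass levels. The fold rule was checked on simulated Poisson totals with known ratios, which do not hold the clustering of UMIs in cells given above. Depth, labels and intervals were not part of that check. Members with at least 100 V1 UMIs in either species are described, and others only named with their UMIs, apart from a sparse member that is not reported here. The members, gene lists and rules were chosen with earlier results of these data known. Mouse coordinates are those of the GRCm39 annotation, where all 45 mouse members matched and 30 overlap another gene.

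Alternatives were a stricter and no filter on cells, glutamatergic subclasses only, thinning each cell to 300 UMIs, scaling each cell to 10000 UMIs, other minimums and folds, stricter labels, leaving out each region and, chosen after seeing the data, counting each gene at most once per cell.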

Additional observations from a re-analysis of the deposited data

Results flagged for a closer look

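The deep-over-superficial ratio of Adra1b was 0.467 in opossum and 1.96 in mouse. It stood out because all 3 opossum regions lay below 1 and all 4 mouse regions above it. The difference between the species was not tested, and species, animal and gene models cannot be told apart. The zones compared are also not matched by layer.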

How the results depend on the processing

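Counts of opossum members called deep (5 as reported) were 0 after thinning, 3 with each cell scaled and 3 at a 1.5-fold rule, and 4 to 5 when a region was left out. Opossum superficial calls (3) were 1 after thinning and 3 to 6 without a region. In mouse, deep calls (5) were 0 after thinning, 3 at 200 UMIs and 3 to 6 without a region, and superficial calls (3) were 1 after thinning and 2 to 3 without a region. Thinning leaves fewer members with 100 UMIs. Glutamatergic-over-GABAergic calls were, in opossum (1), 0 after thinning, 3 at 200 UMIs and 0 to 1 without a region. In mouse (2) they were 0 after thinning, 1 with each cell scaled, 1 with agreeing class labels, 1 with labels of the first 2 rounds, 0 at a 1.5-fold rule, 1 with each gene counted once per cell, and 1 to 2 without a region. Opossum GABAergic calls (0) were 1 at 200 UMIs, opossum neuronal calls (0) 0 to 1 without a region, and mouse neuronal calls (1) 0 after thinning, 0 with each cell scaled, 0 with each gene counted once per cell and 2 at 200 UMIs. Other causes were not tested.

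Without opossum region 3, ADRA2A, ADRA2C and ADRB1 were called superficial and CHRM3 was lost. Mouse Chrna7 and Drd1 were lost without region 1, 3 or 4, at 200 UMIs and in glutamatergic subclasses, where their ratios were 2.069 and 1.781 but both had fewer than 100 UMIs, and Drd1 also without region 2 and with each cell scaled. Without mouse region 1, Chrnb2, Htr2a and Htr2c were called deep, and without region 3 Adra2a was. Adrb1 was lost without region 2. In glutamatergic subclasses opossum HTR1B (1.557) and mouse Adrb1 (0.8125) were lost too, and mouse Chrm3 (1.307) was called deep. CHRM3 was lost with each gene counted once per cell, and CHRM3 and HTR1B with each cell scaled. ADRA1B, ADRA1D, HTR2A, CHRNA4, DRD1 and HTR2C in opossum, and Adra1b, Chrna4, Htr1f, Chrm2 and Adra2c in mouse, were called in every region left out. No call changed direction under any alternative run. No paired analysis was possible because each species has 1 sample.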

Other observations

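LYNX1, whose protein binds nicotinic receptors, had 81400 UMIs in opossum V1 and 1173 in mouse V1. These are raw counts, beside 6933475 and 12522687 UMIs over all features. The opossum count rests on the authors' own reference with lengthened gene ends. Species, animal, age, RNA quality and gene models cannot be told apart in these counts, and the difference was not tested. SLC18A3 in opossum V1 had deep-over-superficial ratios of 6.36, 8.93 and 6.22 in the 3 regions, and its UMIs lay in 68 cells. At 50 UMIs, opossum CHRM2 (1.72; 1.58, 1.12 and 3.73 by region) was called deep and CHRNA2 (0.378) superficial, and mouse Htr7 (0.440) superficial.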
